A study of Mus musculus with 6 samples.

Results

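The data described here were the p53 ChIP-seq peaks at 7 Src family kinase genes, Fyn, Lyn, Lck, Fgr, Blk, Src and Yes1, out of 22380 protein-coding genes of the mm9 annotation. A peak was counted for a gene when it overlapped the gene body extended by 10 kb on both sides. Fyn had been picked for a top-ranked intronic peak, so the place of that site in every list is a description. The other 6 genes are its paralogues.

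Src family kinases are membrane-anchored tyrosine kinases that pass on the first signal of many surface receptors, including the antigen receptors of lymphocytes. Each is held inactive by a phosphate on its tail, which Csk adds and phosphatases such as CD45 (Ptprc) remove. Lyn, Fyn and Blk act at the B cell receptor, Lck and Fyn at the T cell receptor, Fgr is found mainly in myeloid cells, and Src and Yes1 are expressed in many tissues. After DNA damage the p53 protein accumulates and binds DNA as a tetramer, typically at a response element made of a pair of similar decamers.

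Peaks came from 5 libraries of C57/Bl6 mice, each immunoprecipitated with the p53 antibody NCL-p53-CM5p. Chromatin of several animals was pooled for each library. B cells, selected from spleen with B220 beads, and non-B cells, the remainder, came from 8 week old Trp53+/+ mice that were either mock treated or examined 4 h after whole-body irradiation with 7 Gy (IR). The fifth library was total spleen of Trp53-/- mice, 4 h after 7 Gy, the control for antibody background, with no age given. The non-B fraction is a mixture of T cells and other cells of the spleen, and a peak in it cannot be assigned to 1 of them. The peak lists hold no expression values by which either sort could be checked.

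The lists held 1413 peaks in mock B cells, 24507 in irradiated B cells, 712 in mock non-B cells, 21400 in irradiated non-B cells and 83 in Trp53-/- spleen. With 1 library for each group there is no replicate error, so every difference below is a description of these libraries and no test was made. The deposited value of a peak was taken as −log10 of its p-value, a unit inferred from the values. The caller named by the study usually writes 10 times that quantity, in which case every value printed here would stand for a p-value with a 10 times smaller exponent, while ranks and percentiles would stay as they are. It is not normalised between libraries, and the depth of the libraries is unknown, so peaks are compared between lists by their percentile, the share of peaks in the same list with a lower value. The smallest peak was 175 bp wide in irradiated B cells and 55 bp in mock B cells, and 174 bp in irradiated non-B cells and 53 bp in mock non-B cells. Sites that are not listed are called unlisted here, not unbound.

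Across the 7 genes there were 4 peaks in mock B cells, 32 in irradiated B cells, 2 in mock non-B cells, 26 in irradiated non-B cells and 0 in Trp53-/- spleen, where 0.125% of all protein-coding genes had one. In both IR lists the same 5 genes, Fyn, Lyn, Lck, Fgr and Blk, had peaks. Of all protein-coding genes 53.4% had a peak in the same kind of window in irradiated B cells and 51.8% in irradiated non-B cells, so 5 of 7 is not far from the background. In both mock lists Fyn and Lyn had peaks and the other 5 genes had none, against 4.45% of all genes in mock B cells and 2.27% in mock non-B cells. The mock peaks of Fyn include the site for which it was picked, so its place here is a description. Fyn and Lyn were also the 2 longest of these genes, 197 kb and 135 kb, and longer windows have more room for peaks. The part of gene length in the mock peaks was not tested. The median window was 73.4 kb for the 7 genes and 35.4 kb for all protein-coding genes. Per 100 kb of window, the 7 genes held 4.58 peaks in irradiated B cells and 3.72 in irradiated non-B cells, against 1.90 and 1.68 over all protein-coding genes.

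The sequences below are shown because the response elements found by the search described next lay outside the highest peaks of these genes. The search was for the p53 response element without a spacer, with at most 3 mismatches over its 20 bases, and with the central C and G of each decamer required. The decamer consensus is its own reverse complement, so both strands were covered. Elements are given for 5 places in mm9, plus strand, in lower case with those C and G bases in capitals.
Fyn, highest peak, best pair of decamers, chr10:39176267-39176286: gaaCttGcccgggCagctca
Fyn, lowest irradiated B-cell peak, chr10:39142830-39142849: agaCaaGacctgaCatGttt
Lyn, no peak, chr4:3684941-3684960: gaaCaaGtcagagCaaGcct
Lyn, no peak, chr4:3703953-3703972: gagCatGcccaagCaaGatt
Lyn, irradiated B-cell peak, chr4:3670996-3671015: tgaCatGtacacaCatGttc

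The highest peak of Fyn held no such element in any list, not even with 4 mismatches allowed or over its whole width. Its best pair, the first line above, has a decamer without a mismatch followed by 1 that lacks the required G, with 3 mismatches in all. It was found with no position required, a search added after seeing the data. With a spacer of up to 15 bases the best pair within 300 bp of the midpoint of any of these peaks had 4 mismatches. The peaks were 818 to 1959 bp wide, so that search did not cover their whole width. Over the 2083 bp that the peaks of the 4 wild-type lists cover there, 8 decamers had at most 1 mismatch, or 3.84 per kb. All irradiated B-cell peaks had 3.53 per kb, and the same intervals moved by 10 kb had 2.81. Irradiated non-B-cell peaks had 3.49 per kb, mock B-cell peaks 3.97 and mock non-B-cell peaks 4.33. Among the 100 highest peaks of irradiated B cells, 19 likewise held no element with at most 3 mismatches anywhere in the peak, as did 14 of the 100 highest of irradiated non-B cells. Among the 100 highest peaks of the mock lists, where the Fyn peak also ranked, 63 (B cells) and 60 (non-B cells) held none. Mock peaks were narrow, with median widths of 95 bp (B cells) and 93 bp (non-B cells), and the Fyn peaks were 1053 and 818 bp wide. Within 300 bp of the midpoint, 48 and 51 of those 100 had an element.

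The element with 2 mismatches in Fyn lay under the peak with the lowest value that the gene had in irradiated B cells, 7.46, and in no peak of the other lists. The 2 elements with 1 mismatch in introns of Lyn, 79.7 and 98.7 kb from its 5′ end, lay in no peak of any list. Of 2334 elements with at most 1 mismatch in the windows of all protein-coding genes, 31.7% overlapped an irradiated B-cell peak and 29.4% an irradiated non-B-cell peak. Within 3 mismatches the 7 genes had 38 elements, of which 3 overlapped a peak, all 3 in irradiated B cells. The second and the fifth element printed above lay inside their peaks, and another in Lyn overlapped only the edge of its peak. Of the 38, Fyn had 11, Lyn 10, Src 9, Fgr 4 and Blk 4, while Lck and Yes1 had 0. Src, with 9 elements of 3 mismatches each, had no peak.

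Fyn, a kinase of both B and T cell receptor signalling, occupies chr10:39088661-39285187 (plus strand). Its highest peak was in the same place in every wild-type list, about 87.7 kb from the 5′ end, in intron 3 of 13 of transcript Fyn-001. The shorter transcripts Fyn-004 and Fyn-005 start less than 2 kb upstream of the peak midpoints, so by the study's promoter window, from 5 kb upstream to 2 kb downstream of a start, the peak counts as promoter-proximal for these transcripts.

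In mock B cells this peak spanned chr10:39175673-39176725 with a value of 61.52, rank 31 of 1413. In irradiated B cells it spanned chr10:39175416-39177374 with a value of 326.39, which tied with 1 other peak for the highest of 24507. In mock non-B cells it spanned chr10:39175846-39176663 with a value of 46.73, rank 47 of 712. In irradiated non-B cells it spanned chr10:39175292-39177195 with a value of 543.29, rank 24 of 21400. The site therefore stood near the top of all 4 lists, at percentiles of 97.8, 99.99, 93.4 and 99.9 in that order. The numbers of protein-coding genes with a higher peak in their window were 24, 0, 42 and 23 of 22380. These places describe the peak for which Fyn was picked. A second, narrow mock B-cell peak, with a value of 9.05, lay beside it and inside the span of the irradiated B-cell peak.

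**Figure D1:**
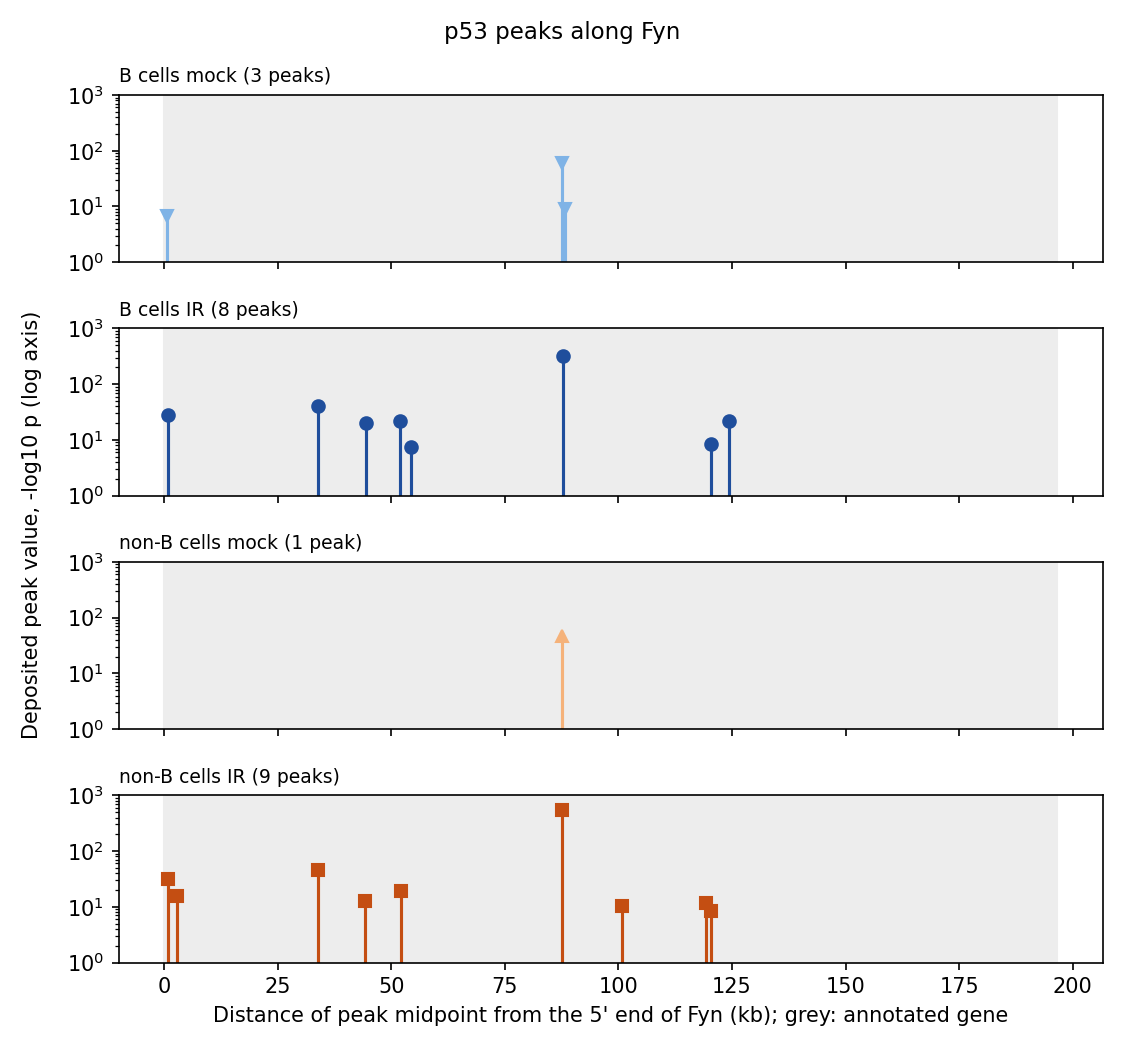
Peaks along Fyn in the 4 wild-type lists, with the distance of the peak midpoint from the 5′ end of the gene in kb on the horizontal axis and the deposited value on a log axis. The peak near 88 kb is present in all 4 panels and is the highest in each, at 61.52, 326.39, 46.73 and 543.29 from top to bottom.

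The other peaks of Fyn were of ordinary rank. Irradiated B cells had 8 peaks in the gene and irradiated non-B cells had 9, all of them in introns, and 6 of each overlapped a peak of the other list. The next highest lay 33.9 kb from the 5′ end, in intron 2, with values of 39.96 in irradiated B cells and 46.51 in irradiated non-B cells, at percentiles of 80.3 and 85.6. The remaining values were between 7.46 and 27.66 in irradiated B cells and between 8.36 and 31.46 in irradiated non-B cells. A peak just upstream of the start of Fyn-001, in an intron of Fyn-006, had a value of 27.66 in irradiated B cells and 31.46 in irradiated non-B cells. A mock B-cell peak at the same site had 6.64, at the percentile of 11.4, and none was listed in mock non-B cells. The peak 52.1 kb from the 5′ end, beside the start of Fyn-007, was listed after irradiation in both compartments at 21.78 and 19.53. It held a pair of decamers with a spacer of 1 base and 2 mismatches, agaCttGccttgctCttGttt at chr10:39140640-39140660.

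Lyn, which can both start and restrain B cell receptor signalling, occupies chr4:3605262-3740269 (plus strand) and was the other gene with mock peaks. The site was in intron 1 of transcript Lyn-001, 46.8 kb from the 5′ end. Its value was 17.17 in mock B cells at chr4:3651887-3652107, 40.44 in irradiated B cells, 12.16 in mock non-B cells at chr4:3652057-3652123 and 14.15 in irradiated non-B cells. The percentiles were 84.1, 80.4, 57.6 and 31.4. Mock and IR lists differ in length, and a percentile in the one is not matched to a percentile in the other. A peak in each of the 4 wild-type lists was found in the windows of 1.73% of all protein-coding genes, and of 2 of these 7. The 2 were Fyn, through the site for which it was picked, and Lyn, so this share is no measure of enrichment. Their windows, 217 and 155 kb, were also the longest of the 7.

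The highest peak of Lyn was not that site. It lay 4.9 kb from the 5′ end in the first intron, with nearly the same value in both IR lists, 53.45 (B cells) and 53.57 (non-B cells), and it was unlisted in both mock libraries. Altogether Lyn had 9 peaks in irradiated B cells and 5 in irradiated non-B cells. Each of the 5 overlapped a B-cell peak, and 4 of them lay in the first 5 kb of the gene or at its start. The B-cell peaks without a counterpart were spread over the introns further downstream, with values of 10.99 to 21.74.

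Fgr, a kinase of myeloid cells, occupies chr4:132530010-132557825 (plus strand). It had 6 peaks in irradiated B cells and 5 in irradiated non-B cells, and no mock peak. The highest was in intron 1 of transcript Fgr-001, beside the start of a shorter transcript, at chr4:132532508-132533208 with 57.09 in irradiated B cells and at chr4:132532638-132533130 with 41.88 in irradiated non-B cells. These values were at percentiles of 88.7 and 82.5. The site held decamers 8 bases apart with 2 mismatches, gggCttGctcattcctcccacCttGtct at chr4:132532965-132532992. Each of the 5 non-B-cell peaks had a counterpart in B cells, and the B-cell peak without a counterpart, at 19.39, lay over the first exon. The peak pair about 9.4 kb beyond the 3′ end of the gene lay nearer to a start of Ahdc1 than to one of Fgr.

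Blk, a kinase largely restricted to B cells, occupies chr14:63991674-64036024 (minus strand). Irradiated B cells had 7 peaks there and irradiated non-B cells had 2, and neither mock list had any. The highest lay over the first exon at chr14:64035338-64036146 with 31.38 in irradiated B cells, and at chr14:64035855-64036068 with 13.13 in irradiated non-B cells. The percentiles of this peak were 72.0 and 27.1, respectively. The second non-B-cell peak, 1.25 kb upstream of the gene, was at 7.66, where irradiated B cells had 19.61. The 5 peaks listed in irradiated B cells alone were at 6.91 to 19.39, so most of them were low in their own list.

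Lck, the kinase bound to the T cell coreceptors CD4 and CD8, occupies chr4:129225588-129250885 (minus strand) and had the opposite counts, 2 peaks in irradiated B cells and 5 in irradiated non-B cells. The highest in both lists lay upstream of the gene, its near edge 1.57 kb from the gene in the first compartment and 1.61 kb in the other, at chr4:129252452-129252717 (26.45) and chr4:129252493-129253028 (25.32), at percentiles of 64.3 and 63.5. Peaks at the start of transcript Lck-001 (14.15), 3.4 kb into its first intron (11.15) and at the start of the shorter Lck-002 (11.80) were listed in irradiated non-B cells and not in irradiated B cells. The 2 remaining peaks lay nearer to starts of Hdac1 (10.19, irradiated non-B cells) and Fam167b (12.09, irradiated B cells).

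**Figure D2:**
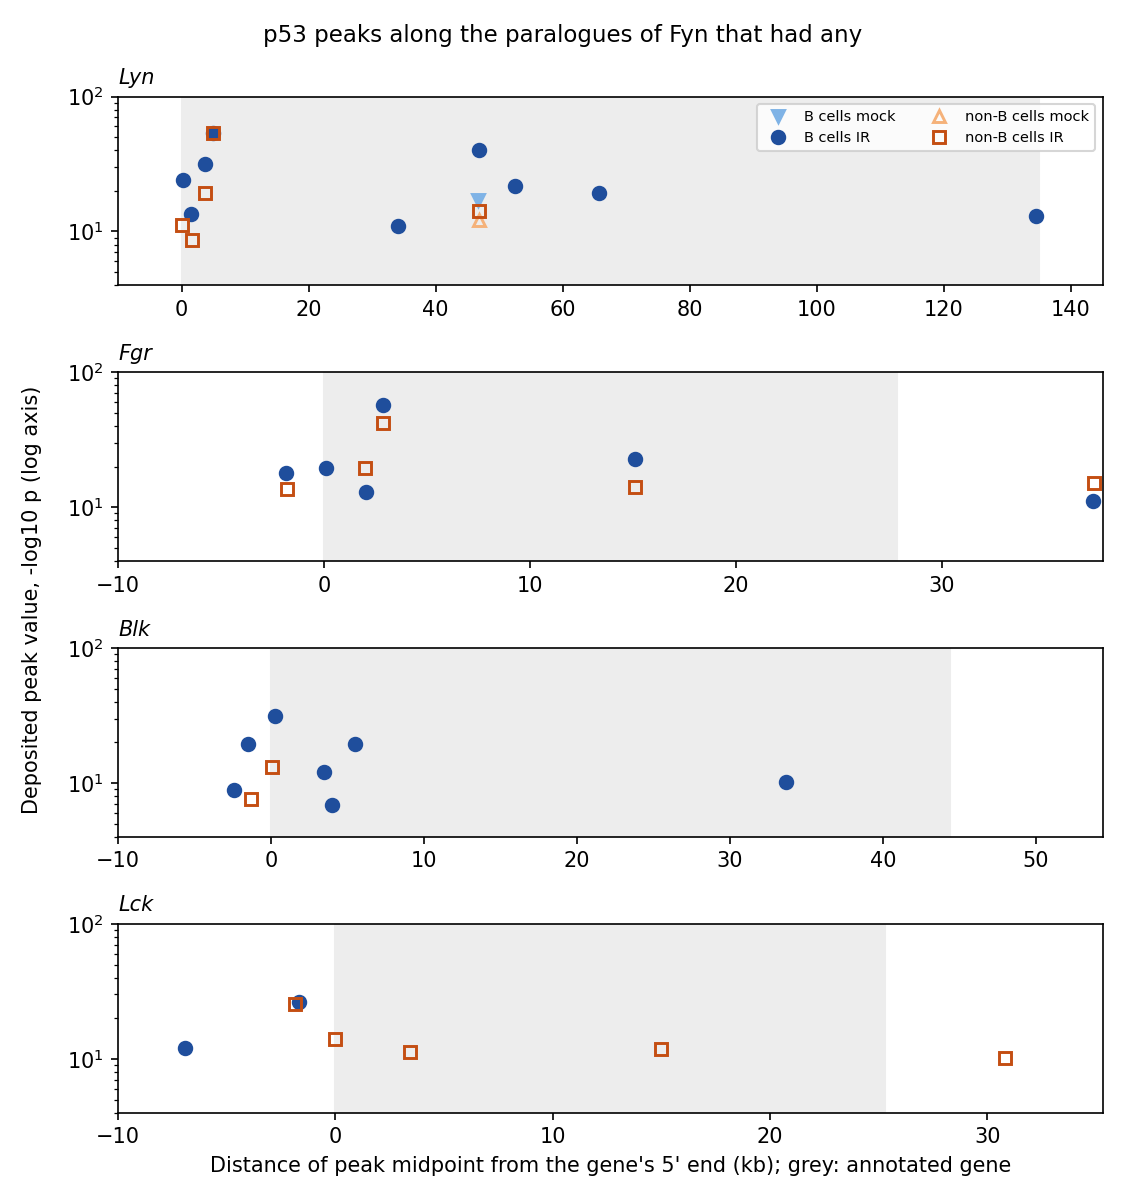
Peaks along Lyn, Fgr, Blk and Lck, with the distance of the peak midpoint from the 5′ end in kb and the deposited value on a log axis. Filled symbols are B cells and open symbols non-B cells. The 4 Lyn sites within 5 kb of the 5′ end have both IR symbols, while most Blk peaks are filled circles and most Lck peaks open squares.

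**Figure D3:**
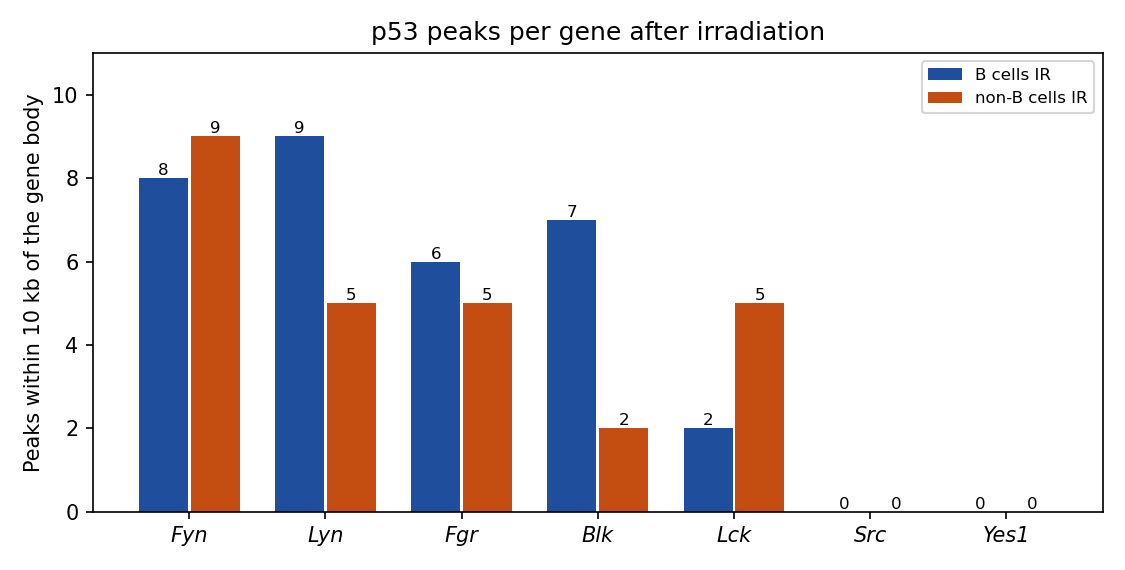
Number of peaks within 10 kb of each gene body in the 2 IR lists. Blk had 7 and 2 (B and non-B cells), Lck had 2 and 5, and Src and Yes1 had 0 in both.

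Blk had more peaks in irradiated B cells and Lck more in irradiated non-B cells. Of the 12510 protein-coding genes with a peak in either IR list, 30.2% had more peaks in irradiated B cells and 15.1% more in irradiated non-B cells, while 0.576% had an excess of at least 5 peaks in irradiated B cells, as Blk did, and 0.735% an excess of at least 3 in irradiated non-B cells, as Lck did. These limits were set at the values of Blk and Lck after they were seen. The extra peaks had low values, and with 1 library per group the part of depth or calling in these differences was not tested. Over all 7 genes, 19 of 32 irradiated B-cell peaks overlapped an irradiated non-B-cell peak and 19 of 26 the other way, against 73.6% and 85.3% of the whole lists. All 4 mock B-cell peaks overlapped an irradiated B-cell peak (88.2% of the list) and both mock non-B-cell peaks an irradiated non-B-cell peak (90.9%).

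Src, the founding member of the family, on chromosome 2 at 157244180 to 157297598, and Yes1, the close relative of Src on chromosome 5 at 32913606 to 32989430, had no peak in any of the 5 lists. Their windows were 73.4 and 95.8 kb long. Of all protein-coding genes 44% had no peak in any list. The nearest peak to Src was 22.1 kb upstream of the gene, outside the window, at 19.47 in irradiated B cells and 11.15 in irradiated non-B cells.

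**Figure D4:**
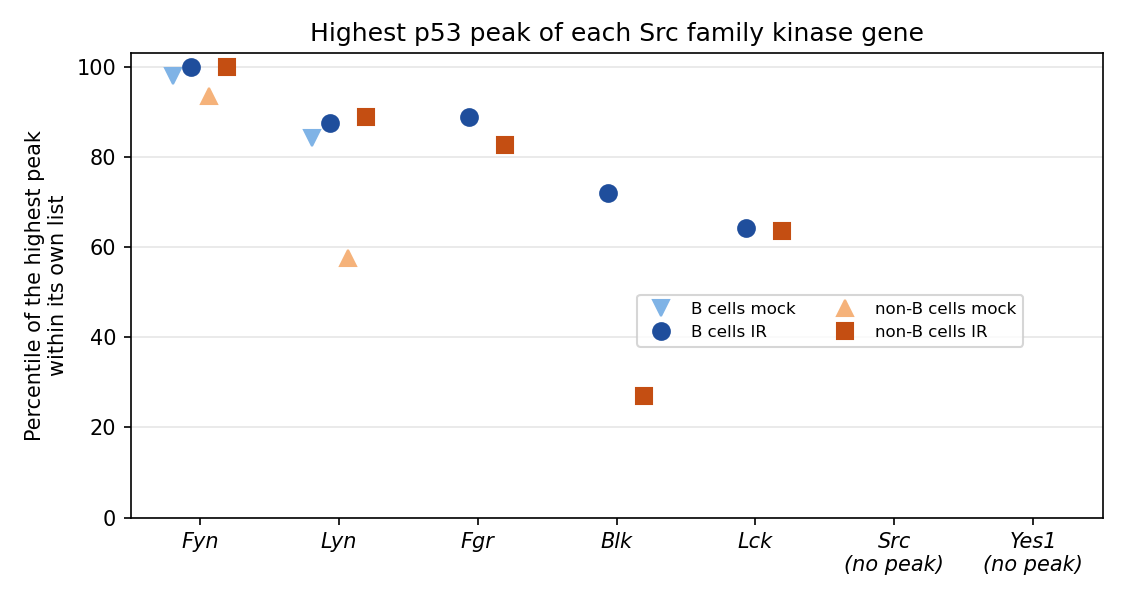
Percentile of the highest peak of each gene within its own list, for the 4 wild-type lists. Fyn is above 93 in all 4 lists, Lyn and Fgr are between 82 and 89 after irradiation, Lck is near 64 in both IR lists, Blk is at 72.0 and 27.1, and Src and Yes1 have no point.

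Ranked by the highest peak, the order in irradiated B cells was Fyn, Fgr, Lyn, Blk, Lck and in irradiated non-B cells Fyn, Lyn, Fgr, Lck, Blk. The gap between Fyn and the next gene was from 326.39 to 57.09 and from 543.29 to 53.57. Of the IR peaks of the 7 genes, those of Fyn near 88 kb were the only 2 in the top 5% of their list. A peak in the top 5% was found in the windows of 4.14% of all protein-coding genes in irradiated B cells and 3.61% in irradiated non-B cells. In mock B cells, where the Fyn peak was also in the top 5%, the share was 0.25%, and in mock non-B cells, where it was not, 0.134%. Fyn was picked for this peak, which is the same site in every wild-type list, so these shares are no measure of enrichment. The median value of the peaks at the 7 genes was 19.50 in irradiated B cells, where that of the whole list was 19.47, and 14.15 in irradiated non-B cells, where that of the whole list was 19.37.

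By position, 23 of the 32 irradiated B-cell peaks and 18 of the 26 irradiated non-B-cell peaks were intronic by their midpoint. A midpoint within the promoter window of the gene's own start was found for 13 and 14 of them. By gene it was found for 5 of the 7, against 39.2% and 38.1% of all protein-coding genes. Those 5 were all of the 7 that had a peak. Of the 11943 protein-coding genes with a peak in irradiated B cells 8774 had a promoter peak, and of the 11595 in irradiated non-B cells 8531 did. In each mock list Fyn alone of the 7 had a promoter peak, against 1.95% of genes in mock B cells and 0.947% in mock non-B cells. The peak for which Fyn was picked was its only promoter peak in mock non-B cells and 1 of 2 in mock B cells. These shares are therefore no measure of enrichment, and Fyn has 9 annotated starts. With the search described above, 3 of the 32 irradiated B-cell peaks had an element within 300 bp of the midpoint and 0 of the 26 irradiated non-B-cell peaks did, where the whole lists had 15.3% and 15.4%, and windows moved by 10 kb 3.22% and 3.31%. Of the 6 mock peaks at Fyn and Lyn 0 had an element, against 22.3% of the list in mock B cells and 34.6% in mock non-B cells. When a spacer of up to 15 bases was allowed, 10 of 32 and 10 of 26 peaks had an element, against 46% and 45.3% of the lists. The search with a spacer was not run on windows moved by 10 kb. At the Lyn site 46.8 kb from the 5′ end, the pairs with 2 mismatches lay outside the peaks. With no position of the decamers required it was 10 of 32 and 7 of 26, against 26.9% and 26.7% of the lists and 15.3% and 15.2% of moved windows.

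The peaks nearest to the 10 kb limit of the window were those of Fgr at 9.33 and 9.44 kb beyond the gene, with values of 11.11 and 15.19, on the inside. On the outside they were an irradiated B-cell peak 11.4 kb beyond Lck at 25.25 and a Lyn site about 11.6 kb beyond the gene at 46.88 in irradiated B cells and 27.86 in irradiated non-B cells. The Lyn site was nearer to a start of Rps20 and was also listed in mock B cells, at 14.59.

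Genes that act with the Src family kinases were looked at in the same way, from a list of 33 of which 32 carry the same name in the annotation. A peak was present in the windows of 26 of the 32 in irradiated B cells, 28 in irradiated non-B cells, 9 in mock B cells, 4 in mock non-B cells and 0 in Trp53-/- spleen. The shares over all protein-coding genes in that order were 53.4%, 51.8%, 4.45%, 2.27% and 0.125%.

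A peak in the top 5% was present for 5 of the 32 genes in irradiated B cells (4.14% of all protein-coding genes) and 4 in irradiated non-B cells (3.61%), and window lengths were not matched to those of other genes. Csk, Ptpn22, Ptprc and Cblb had one in both lists. Csk, which adds the inhibitory phosphate, had its highest peak at 133.41 in irradiated B cells and 130.49 in irradiated non-B cells. Ptpn22, a phosphatase that acts with Csk, reached 133.25 and 106.77, and Ptprc reached 95.04 and 106.99. Cblb, a ubiquitin ligase that dampens antigen receptor signalling, had the highest values of the list, 167.50 and 175. Cd79b, a signalling chain of the B cell receptor, was in the top 5% in irradiated B cells (106.49) and not in irradiated non-B cells (70.48). These values are all below those of the Fyn peak in the same list. Fyn was picked for that top-ranked peak, so this order is a description only.

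Mock peaks were listed for Csk, Pag1 (the membrane adaptor of Csk) and Ptprc in both compartments. The highest Csk mock peak had 13.71 (B cells) and 6.70 (non-B cells). Cblb, Cd79a, Cd79b, Cd22 and Blnk had mock peaks in B cells only. Of all mock B-cell peaks, 31.3% overlapped a mock non-B-cell peak, and the mock non-B-cell list was shorter, with 712 peaks against 1413. A mock peak in B cells only was therefore common over the whole list. Of these, all but Cblb are chains, coreceptors or adaptors of the B cell receptor. Lcp2, an adaptor of T cells and other blood cells, had mock peaks in non-B cells only. The highest of these mock values was 13.71, against 61.52 and 46.73 at the site for which Fyn was picked.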

How the data were processed

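p53 ChIP-seq was available as 5 peak lists, 1 for each immunoprecipitated library. By the study's account bases of low quality were masked, BWA (0.6.2 in the submitters' processing notes) aligned them to mm9, and MACS called the peaks. The value used is the fifth deposited column, read as −log10 of the authors' p-value. With a single Poisson background mean fitted for each list, 25.2% and 33.6% of values below 40 (mock and irradiated B cells) and 27.8% and 35.1% (mock and irradiated non-B cells) were matched to 2 decimals, and the other values were not explained by a single mean. The control list of Trp53-/- spleen had few peaks and was taken to hold the same unit. The stated limit of 1e-08 was not visible in the column, whose lowest value was 5.01. Lists give no depth, so no counting interval was computed. The input library was not used here.

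Coordinates are 1-based on mm9, annotated with GENCODE vM1. Gene windows, promoters (5 kb upstream to 2 kb downstream of a start, by peak midpoint), overlaps of at least 1 bp and ranks were computed with Python 3.11.15, numpy 2.4.6, scipy 1.17.1 and pandas 2.3.3, and figures with matplotlib 3.10.9. Elements were searched within 300 bp of the midpoint unless the whole peak is named. The steps were tested on simulated data and passed 3 of 3 checks.

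The 7 genes, the list of 33 and the searches were chosen with earlier results of these data known. For the 7 genes, the highest peak in each list and the mock peaks are given with their values. Of the 33, those with a mock peak or a peak in the top 5% of an irradiated list are named, except for items not reported here.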

Additional observations from a re-analysis of the deposited data

How the results depend on the processing

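Of 119 recomputed values, 90 stayed within 1.5 times the count given or within the 95% Wilson interval of the percentile. Some of the 90 could not move, because no peak of the 7 genes overlapped a Trp53-/- peak that could be removed. The counts in Trp53-/- spleen were 0 in every setting. Of the 29 values that moved, 13 were percentiles ranked by width, where 1 stayed. The numbers of peaks and of genes with a peak stayed within 1.5 times with no extension, an extension of 25 kb, peak midpoints and a minimum value of 8, as did the numbers of peaks without those shared with Trp53-/- spleen and the numbers of genes with assignment to the nearest start. The numbers of overlapping peaks stayed within it for an overlap of 50% and for midpoints within 500 bp. No paired analysis was possible because the groups hold a single pooled library apiece, and none could be dropped from a group. Protein identity between the kinases was not run. Ranking by width instead of value gave the highest percentile of Fyn as 99.4 in mock B cells, 99.7 in irradiated B cells, 97.3 in mock non-B cells and 99.8 in irradiated non-B cells. For the other genes it gave Lyn 93.2 (irradiated B cells), 25.8 (mock non-B cells) and 51.4 (irradiated non-B cells), Lck 39.5 (irradiated B cells) and 83.1 (irradiated non-B cells), Fgr 89.2 (irradiated B cells) and 79.2 (irradiated non-B cells), and Blk 93.2 (irradiated B cells) and 17.8 (irradiated non-B cells). With IR lists of equal length the irradiated B-cell percentiles were 85.7 for Lyn, 59.1 for Lck, 87.1 for Fgr and 67.9 for Blk. The number of irradiated B-cell peaks with an element became 1 when 2 mismatches were the limit, 1 within 100 bp of the midpoint and 10 with a spacer allowed. With no position of the decamer required, a setting chosen after seeing the data, it became 10 in irradiated B cells, 7 in irradiated non-B cells, 1 in mock B cells and 1 in mock non-B cells, and of all irradiated B-cell peaks 26.9% then had an element, against 15.3% of windows moved by 10 kb. With a spacer allowed 1 mock B cells, 1 mock non-B cells and 10 irradiated non-B-cell peaks had an element, and 2 irradiated non-B-cell peaks did with 4 mismatches. With promoters cut to 1 kb on both sides of a start, 0 genes had a promoter peak in mock non-B cells. The cause of these changes was not tested.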
